A study of Mus musculus with 4 samples.

Results

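Many noncoding genes lie across from a protein-coding gene, on the other DNA strand, so that their exons and the exons of the protein-coding gene cover the same bases. The genes described here are those of GENCODE type antisense, lincRNA, processed_transcript or TEC (a gene still to be experimentally tested) whose exons shared 200 or more bases with exons of exactly 1 protein-coding gene on the opposite strand. Genes on chromosome X were left out. So were genes opposite a ribosomal protein partner, taken as a symbol that starts with Rpl or Rps and a digit. Mitochondrial ribosomal protein genes, such as Mrpl12, were kept. The rule gave 1221 noncoding genes, of 10540 of these 4 types and 50600 genes in all. They were set opposite 1174 protein-coding partner genes. Of the noncoding genes, 794 were of type antisense, 156 TEC, 150 processed_transcript and 121 lincRNA. The choice used exon coordinates, gene type, chromosome and partner symbol, and no counts. It was made with earlier results of these data known. The order among the 1221 used the counts themselves, as the mean count per kilobase shared with the partner over the libraries.

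The counts came from total RNA-seq of T-helper 2 (Th2) cells, the CD4 T cell subset known for its cytokine interleukin 4. The 4 libraries, named replicates 1, 2, 3 and 4 by the number in their labels, form a single group of primary cells that were differentiated in culture from strain C57BL/6NJ mice. No genotype, treatment or control group is given, sex was not collected and age is listed as unknown. A shared donor identifier stands on all 4, so that a p-value here reflects only how these samples differ, and that spread may be technical. Library totals were 1688658, 1705096, 2222583 and 1881293 counts in replicates 1, 2, 3 and 4, and a count of 0 allows up to 3, which is a CPM (count scaled to the library total) of 1.35 to 1.78. This limit covers counting error only. On the counted strand all 8 T cell markers had counts in all 4 libraries, summing to 178 to 308, and all 4 cytotoxic markers had none. Of the 7 Th2 markers 4 had counts in all 4 libraries, summing to 239 to 294, while Il5, Il13 and Il1rl1 were at 0. Of 3 B cell markers 1 had counts in all 4 libraries, the list summing to 9 to 20, while Ms4a1 was at 0. Of 4 macrophage markers Adgre1, Cd14 and Lyz2 were at 0, and Csf1r held the macrophage counts of 916 to 1018. In such bulk samples fewer cells of a type and less RNA per cell cannot be told apart. Whether the marker counts come from RNA of the marker genes or of genes on the other strand was not tested.

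Antisense and other noncoding transcripts that overlap a coding gene can act on that gene, by blocking its transcription, by recruiting chromatin enzymes or by pairing with its RNA, while many others have no known role. Strand-specific RNA-seq tells such a transcript from its partner by the orientation of the reads alone, because both come from the same bases. The deposited counts were made with the strand option of featureCounts set to 1, which gives a read pair to the gene on the strand of its first read. The sources used here do not say whether the first read of these libraries has the orientation of the RNA. Which RNA of a pair gave the counts was not tested, and each level below is the level on the counted strand.

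The coordinates show how closely members and partners coincide. Stretches of coding exon were read for the leading members from GENCODE release M21 transcripts on build mm10, and 6 of the 9 stretches found are shown because they lie opposite coding sequence of partners that lead the ranking. Each is written 5′ to 3′ on the strand of the noncoding gene. Capitals mark bases shared with a coding exon of the partner, and lower case marks bases of the noncoding exon that run on into the partner's intron.
Gm16755 opposite Mrpl12, chr11:120488077-120488169, minus strand: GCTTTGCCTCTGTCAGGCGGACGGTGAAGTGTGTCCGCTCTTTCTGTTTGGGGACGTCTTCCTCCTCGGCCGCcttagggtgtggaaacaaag
Gm17638 opposite Eif3d, chr15:77963158-77963345, plus strand: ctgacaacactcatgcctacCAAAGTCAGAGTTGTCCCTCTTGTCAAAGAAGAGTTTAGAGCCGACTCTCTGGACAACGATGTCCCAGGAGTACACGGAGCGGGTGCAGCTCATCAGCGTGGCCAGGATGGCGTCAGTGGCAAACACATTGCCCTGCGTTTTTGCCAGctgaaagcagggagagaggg
2610020C07Rik opposite Gspt1, chr16:11223237-11223321, plus strand: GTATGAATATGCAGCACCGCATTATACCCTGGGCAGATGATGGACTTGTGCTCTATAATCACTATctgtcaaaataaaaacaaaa
Gm26762 opposite Gpi1, chr7:34227098-34227257, plus strand: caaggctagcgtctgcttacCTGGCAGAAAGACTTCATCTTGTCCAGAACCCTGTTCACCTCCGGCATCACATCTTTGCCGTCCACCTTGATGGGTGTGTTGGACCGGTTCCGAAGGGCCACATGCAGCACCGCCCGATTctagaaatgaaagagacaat
Gm15283 opposite Hif1a, chr12:73932326-73932464, minus strand: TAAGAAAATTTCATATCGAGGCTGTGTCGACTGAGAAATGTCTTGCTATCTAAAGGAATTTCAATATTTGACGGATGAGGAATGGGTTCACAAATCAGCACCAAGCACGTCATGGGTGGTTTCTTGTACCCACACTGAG
Gm26885 opposite Pim1, chr17:29491305-29491451, minus strand: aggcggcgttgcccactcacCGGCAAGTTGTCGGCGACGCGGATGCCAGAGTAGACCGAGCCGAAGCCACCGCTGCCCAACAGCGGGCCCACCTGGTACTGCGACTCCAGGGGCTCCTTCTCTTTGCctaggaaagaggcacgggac

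The shared coding stretches above measure 73, 148, 65, 120, 139 and 107 bases in this order. In all 7 of the 9 stretches that run on beyond the shared part at their 3′ end, the capitals were followed by ct. In 5 of the 6 that run on at their 5′ end they were preceded by ac. The other, Gm42727 opposite Pds5a, had gc there and is not shown. Read on the partner's strand, ct is the ag that closes an intron and ac is the gt that opens one. The noncoding exons thus cross the partner's splice boundaries and continue into its introns. The Hif1a stretch ends flush with the noncoding exon on both sides and shows no intron bases.

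Members held a large share of what was counted. They had 456463, 443766, 561615 and 498408 counts in replicates 1, 2, 3 and 4, which was 27.0, 26.0, 25.3 and 26.5% of each library. The mean share was 26.2 ± 0.747% of all counts and 69.3 ± 0.453% of the counts in noncoding genes of the 4 types (SD, n = 4), against 1221 of the 10540 such genes. A count was found in at least 1 library for 876 members and in all 4 for 743, while 345 had none. The mean count was 1000 or more in 132 members and 10 or more in 674. The overlap itself was short in most cases, with a median of 444 shared bases, or 32.3% of a member's exonic bases, and 89 members lay wholly inside partner exons. Exons of 57 members also shared bases with another gene on their own strand and exons of 114 with a further gene on the other strand, so that reads there are uncertain between genes. With members on such bases left out, an alternative chosen after seeing the data, the share of noncoding counts was 57.9%.

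Detection of noncoding genes followed what lay on the other strand. In replicates 1, 2, 3 and 4, a count was found for 65.4, 65.5, 66.7 and 66.6% of the 1221 members. For the 853 noncoding genes that shared fewer than 200 bases with protein-coding exons the share was 59.7 ± 1.10%, for the 1292 genes facing only introns it was 29.1 ± 5.34%, and for the 7098 with no protein-coding gene opposite it was 7.53 ± 0.533% (SD, n = 4). Median exonic lengths were 1730, 987, 891 and 1334 bases in these classes, longest in the members, and the part of length in these shares was not tested. The ranges over libraries did not overlap between these 4 classes, and the intron class had its highest share, 36.4%, in replicate 3, the deepest library. The level was taken as log2(CPM per exonic kilobase + 1), a scale that understates low levels. Its median over members was 3.19, 2.94, 3.01 and 3.22 in replicates 1, 2, 3 and 4, and over the 8390 genes with no opposite protein-coding exon it was 0 in each. With that median at 0, the difference of 3.09 ± 0.139 (SD, n = 4) is the members' own median and could not be negative. The exact two-sided sign-flip p was 0.125, the smallest that 4 libraries allow. So 0.05 could not be reached, and the test decides nothing here. The upper quartile of the members was 108 ± 4.07 CPM per exonic kilobase (SD, n = 4).

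**Figure D1:**
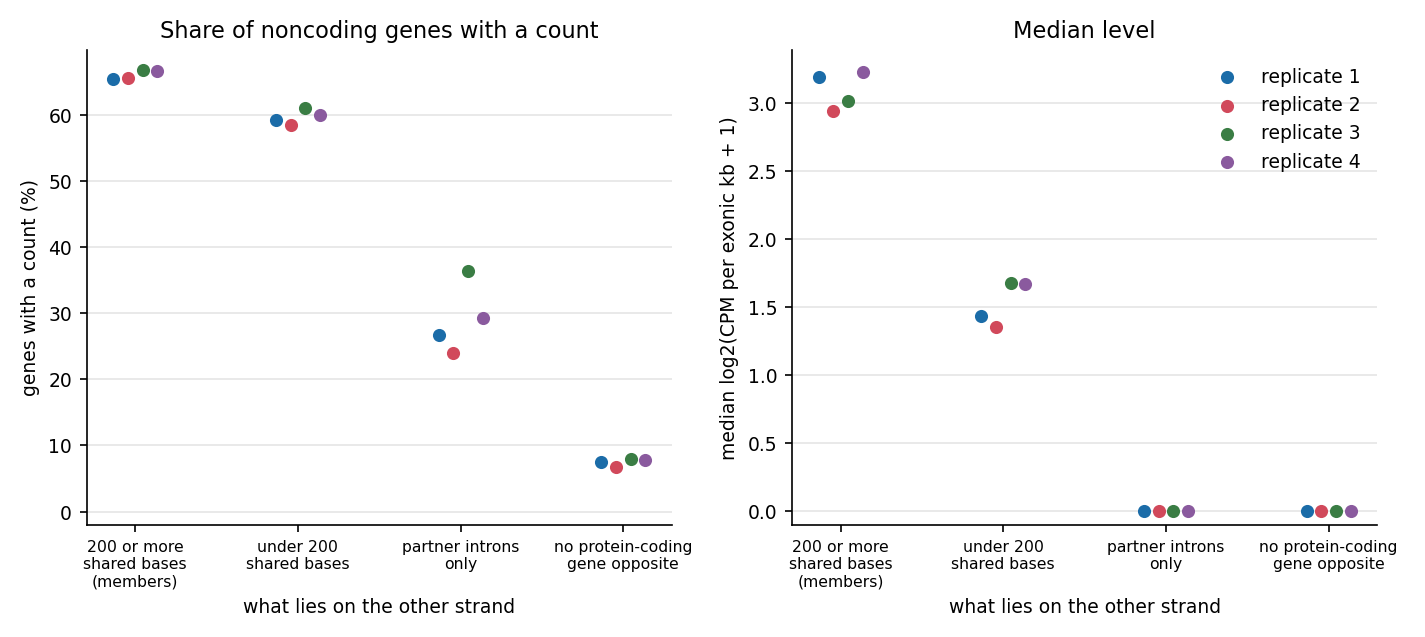
Noncoding genes of 4 types by what lies on the other strand, with 1 point per library. The left axis is the percent of genes with a count and the right axis the median of log2(CPM per exonic kilobase + 1); members lie between 65.4 and 66.7% and genes with no protein-coding gene opposite between 6.78 and 7.99%.

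The ranking by counts per shared kilobase was steep. The median over the 1221 members was 48.7 counts per shared kilobase, at place 100 it was 2532, at place 25 it was 7770, and at the top 27289. The 25 leading members held 24.4% of all member counts, and the first 122 held 61.8%. In the 25, counts were close between libraries once scaled to library totals, with a coefficient of variation of CPM from 2.17 to 14.7% and a median of 5.95%. Among them Gm16008 and Gm28306 share exonic bases with another gene on their own strand, and Gm20512 shares 135 with a further gene opposite. Replicate 3 had the highest raw value in most of them and also the largest total. The same 25 led when libraries were weighted equally as CPM, and 24 or 25 of them remained when any 1 replicate was left out. Scaled to the member's own exonic length in place of the shared length, 13 of the 25 remained in the first 25, and Gm17041 opposite Cish, Gm43126 opposite Ccnd2 and Gm11175 opposite Jund led.

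**Figure D2:**
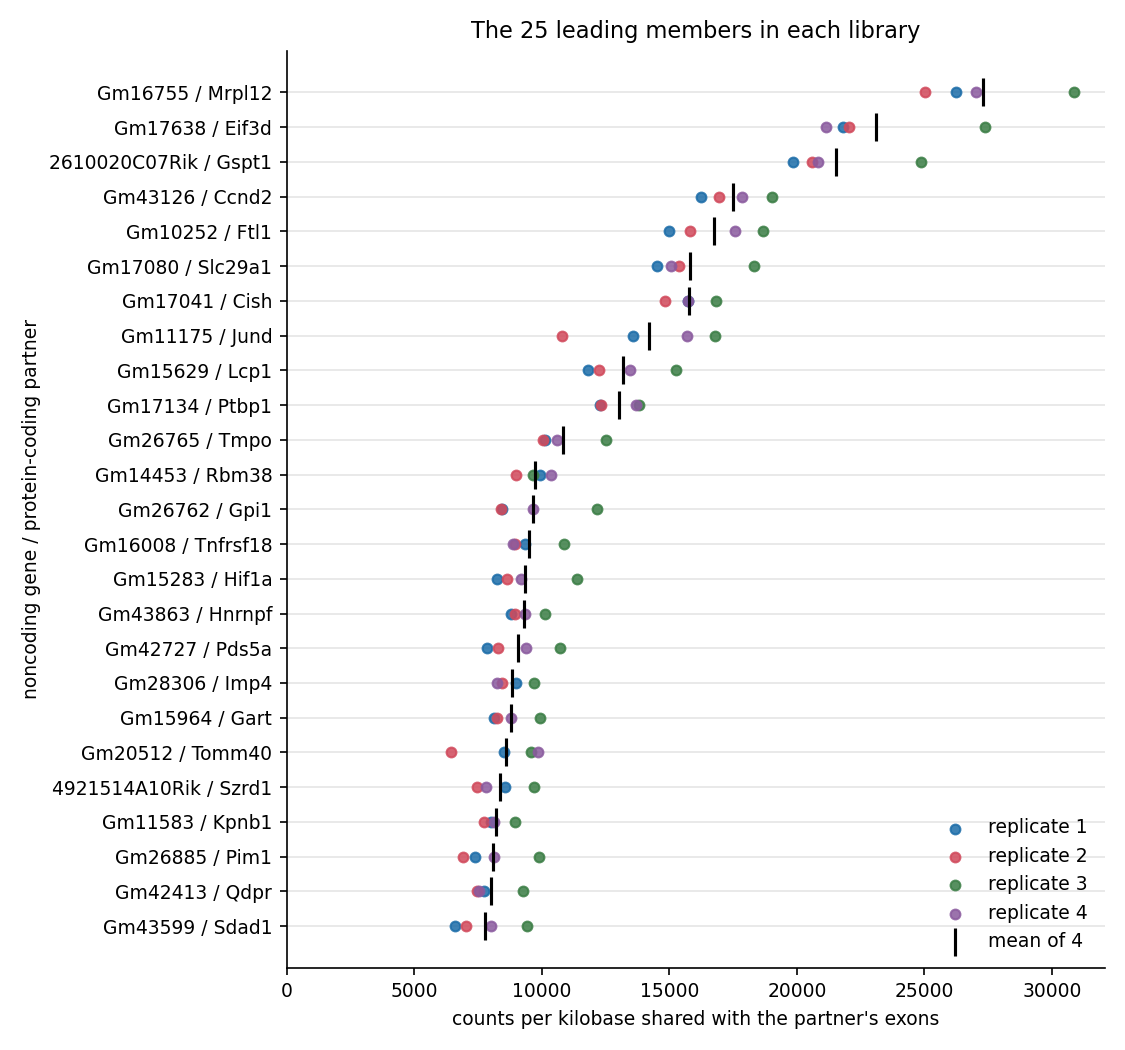
Counts per kilobase shared with the partner's exons (horizontal axis) for the 25 leading members, with 1 point per library and a bar at the mean of 4. Gm16755 opposite Mrpl12 leads at 27289 and the last of the 25, Gm43599 opposite Sdad1, stands at 7770.

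Partners that build proteins took the first 3 places per shared kilobase. Scaled to the member's own exonic length, Gm16755 stood at place 13, and Gm17638 and 2610020C07Rik were not among the first 25. Gm16755 (chromosome 11, 120486339 to 120488582) shares 200 bases with Mrpl12, a subunit of the mitochondrial ribosome, of which 73 are coding and 127 lie in the 3′ UTR. It had 5250, 5002, 6171 and 5408 counts in replicates 1, 2, 3 and 4, or 27289 ± 2520 per shared kilobase (SD, n = 4), where Mrpl12 itself had 18, 19, 17 and 40. The noncoding gene held far more counts than its partner in every library, which ranking by the member's counts favours. Of all members tested against their partner, 81.6% were higher per exonic kilobase. Gm17638 (chromosome 15, 77961674 to 77967126) shares 625 coding bases with Eif3d, a subunit of translation initiation factor 3. It held the most counts of the 25, with 13640, 13789, 17102 and 13213, and had 23098 ± 2870.4 per shared kilobase (SD, n = 4), against 67, 70, 66 and 94 counts in Eif3d. 2610020C07Rik (chromosome 16, 11203383 to 11225796) shares 239 coding bases with Gspt1, the translation termination factor eRF3a, which are 8.17% of its exonic length. Its counts were 4747, 4923, 5940 and 4978, and those of Gspt1 were 122, 122, 93 and 162. Lower in the 25 stood Gm28306 opposite Imp4 and Gm43599 opposite Sdad1, both partners with roles in ribosome assembly, at 8836 ± 649 and 7770 ± 1258 counts per shared kilobase (SD, n = 4). Of the 67 genes listed for translation and ribosome biogenesis, Eif3d was the only partner.

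Partners of cytokine and T cell signalling stood at places 7, 9, 14 and 23. Gm17041 (chromosome 9, 107300380 to 107301838) lies wholly inside exons of Cish, a cytokine-induced inhibitor of receptor signalling, over 479 bases of which 321 are coding. It had 7526, 7109, 8055 and 7527 counts in replicates 1, 2, 3 and 4, a range narrower than that of library totals, and Cish had 34, 38, 25 and 40. Gm26885 (chromosome 17, 29461896 to 29491925) shares 468 coding bases with Pim1, a kinase made in response to cytokines, and had 3447, 3229, 4635 and 3792 counts against 21, 33, 30 and 35 in Pim1. Gm16008 shares 414 bases with Tnfrsf18, the costimulatory receptor GITR, and had 3872, 3703, 4492 and 3666 counts. Gm15629 shares 219 bases with Lcp1, an actin-bundling protein of leukocytes, and had 2585, 2683, 3339 and 2950 counts. In these 4 members each library's count exceeded the highest count of the partner in any library, which ranking by the member's counts favours. Below the 25, 1700084C06Rik opposite Tyk2, a kinase of cytokine receptors, had 1851, 1849, 2919 and 2487 counts, or 4109 ± 944 per shared kilobase (SD, n = 4). Its 554 shared bases lie in exon sequence of Tyk2 that is neither coding nor UTR, and its exons also face 2 further genes on the other strand.

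Members opposite cytokine receptors and cytokines differed widely in level. Gm44876 shares 571 bases with Il4ra, a chain of the interleukin 4 receptor, and had 734, 713, 798 and 661 counts, while Il4ra had 21, 20, 18 and 34. Gm42809 opposite Il6ra, of the interleukin 6 receptor, had 333, 260, 421 and 358, and Il6ra had 145, 117, 115 and 154. By contrast, Gm12214 shares 417 bases with Il5 and had 1, 4, 1 and 4 counts, and Il5 had none. Gm12534 shares 469 bases with Il21 and had 1, 0, 0 and 3 counts, where Il21 had 35, 19, 43 and 40. Of the 8 members opposite genes of the cytokine list, the median was 1345 counts per shared kilobase, against 48.7 over all members. The 7 opposite the T cell receptor and surface list had a median of 1757, from 13193 for Gm15629 down to 0 for Gm15628, both opposite Lcp1.

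Members opposite transcription factor and cell cycle genes had some of the highest counts. Gm11175 (chromosome 8, 70699162 to 70700080) lies wholly within coding sequence of Jund, a subunit of the transcription factor AP-1, over 877 bases. Its counts were 11895, 9457, 14737 and 13769 in replicates 1, 2, 3 and 4, with replicate 2 lowest, and those of Jund 85, 57, 67 and 141. Gm43126 (chromosome 6, 127122966 to 127126155) shares 372 bases of the 3′ UTR of Ccnd2, the cyclin D2 gene that drives entry into the cell cycle. It had 6040, 6303, 7071 and 6637 counts, and Ccnd2 had 140, 118, 80 and 153. Gm15283 (chromosome 12, 73926481 to 73949785) shares 330 coding bases with Hif1a, the regulator of the response to low oxygen, and had 2717, 2848, 3750 and 3025 counts, against 30, 23, 22 and 52. The coefficient of variation of its CPM was 2.51%, among the lowest of the 25. Gm26765 opposite Tmpo, a nuclear lamina protein, and Gm42727 opposite Pds5a, a regulator of cohesin, had 10817 ± 1151 and 9047 ± 1275 counts per shared kilobase (SD, n = 4). Of 18 members opposite the transcription factor list 16 had a count, with a median of 300.01 per shared kilobase. Bach2os, opposite a repressor that restrains effector T cells, had 2256, 2243, 3338 and 2855 counts. At the low end Gm15655 opposite Maf had 3, 0, 1 and 1, and Zeb2os and 4930538E20Rik, opposite Zeb2 and Bcl11a, had none. Of 5 members opposite the cell cycle list, Gm16794 opposite the damage kinase gene Atr and Gm17590 opposite Cdk6 had 1451 ± 247 and 1223 ± 187 counts per shared kilobase (SD, n = 4).

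RNA-binding partners were the list with the largest number of members among the first 122, though not the largest share, since 3 of 4 members opposite mitochondrial and energy genes and both opposite cytoskeleton genes stood there. Of 10 members opposite the 96 genes of the splicing and RNA-binding list, 6 stood among the first 122 and the median was 3671 counts per shared kilobase. Gm17134 lies wholly in the 3′ UTR of Ptbp1, a repressor of exon inclusion, over 437 bases. It had 5361, 5380, 6035 and 5987 counts in replicates 1, 2, 3 and 4, and Ptbp1 had 82, 64, 46 and 96. Gm43863 shares 396 bases of the 5′ UTR of Hnrnpf, a splicing regulator, and had 3479, 3541, 4011 and 3702 counts. Gm14453 shares 227 bases of the 3′ UTR of Rbm38, an RNA-binding protein, and had 2252, 2044, 2189 and 2348. Further down, Gm12992 opposite Srsf4 and Gm26669 opposite Zfp36l1, a factor that destabilises mRNAs, had at least 5985 counts in every library. Gm26565, with 1961 bases opposite Celf2, had no count. Among the 11 members opposite chromatin genes, all had a count, and Gm17275 opposite the histone gene H3f3a, Kdm6bos opposite the demethylase gene Kdm6b and Gm26873 opposite the remodeller gene Chd1 led with 3334 ± 846, 2791 ± 396 and 2554 ± 525.6 counts per shared kilobase (SD, n = 4).

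The remaining 8 of the 25 had partners of several kinds, enzymes and transporters among them. Gm10252 shares 355 bases with Ftl1, the ferritin light chain that stores iron, and had 5320, 5609, 6628 and 6243 counts against 9, 12, 6 and 9. Gm17080 shares 275 coding bases with Slc29a1, a nucleoside transporter, and had 3993, 4231, 5043 and 4142. Gm26762 shares 741 bases with Gpi1, an enzyme of glycolysis, and had 6260, 6232, 9011 and 7138, with replicate 3 highest. Gm15964 shares 676 bases with Gart, an enzyme of purine synthesis, and had 5492, 5581, 6697 and 5943. The counts of these 4 members exceeded those of their partners in every library, which ranking by the member's counts favours. Gm20512 opposite Tomm40, the import channel of mitochondria, was the most variable of the 25, at 2195, 1658, 2472 and 2537 counts and a coefficient of variation of 14.7%. Gm42413 opposite Qdpr, Gm11583 opposite the nuclear import receptor gene Kpnb1 and 4921514A10Rik opposite Szrd1 completed the 25, at 7999, 8193 and 8375 counts per shared kilobase. Just below, Gm44170 opposite Sec61a1, of the protein channel of the endoplasmic reticulum, and Gm37401 opposite the small GTPase gene Rhoa had 7582 ± 354 and 7296 ± 519, Gm45760 opposite Got2 had 5869 ± 766 and 9130221H12Rik opposite the kinase gene Gsk3a had 4775 ± 153 (SD, n = 4).

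Together, 78 members lay opposite a gene of the 11 partner lists, which hold 1018 genes. Their median was 1055 counts per shared kilobase against 48.7 for all members, 73 of them had a count and 28 were among the first 122. The lists hold genes of cells of this kind and were chosen with earlier results of these data known, so their levels describe these partners and are no independent evidence. Members with exactly 200 shared bases, the least the rule allows, included the leading one, Gm16755. Of the others just inside this limit, BC106179 opposite St6gal1 had 130, 123, 130 and 109 counts, Gm13609 opposite Nup214 had 585, 592, 782 and 747, and Gm13425 opposite Prdm12 had none. Exons of BC106179 also share 1582 bases with a further gene on the other strand. Just outside, with 199 shared bases, Gm15350 opposite Atp11a had 775, 718, 1084 and 972 counts, A930024E05Rik opposite Kdm2b had 3, 2, 3 and 3, and Gm15958 opposite Ccbe1 had none.

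Each noncoding gene was then compared with its partner within libraries, per exonic kilobase of each gene, in a quasi-likelihood test (edgeR, library as a block, Benjamini-Hochberg adjustment at 0.05 over 1452 pairs that share any exonic base). Of the 1221 members 846 had the 10 counts needed, and 690 of these, 81.6%, were higher than their partner, near the 79.5% called higher over all pairs tested. Lower than their partner were 102 members, 12.1%, near the 12.3% over all pairs. A further 54 passed in neither direction and 375 were not tested. The median log2 ratio of the tested members was 6.05, or 5.98 with genes at 0 set to 3 counts, against 5.86 for all pairs. Of the 690 members called higher, 682 were above their partner in 4 of 4 libraries. Scaled to the shared length in place of the member's own, 724 members were higher and 57 lower. Ranking by the member's counts favours a high ratio, so the ratios of the 25 leading members are given as values only, from 5.93 ± 0.241 for 2610020C07Rik to 11.5 ± 0.317 for Gm17041 on the log2 scale (SE, edgeR).

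**Figure D3:**
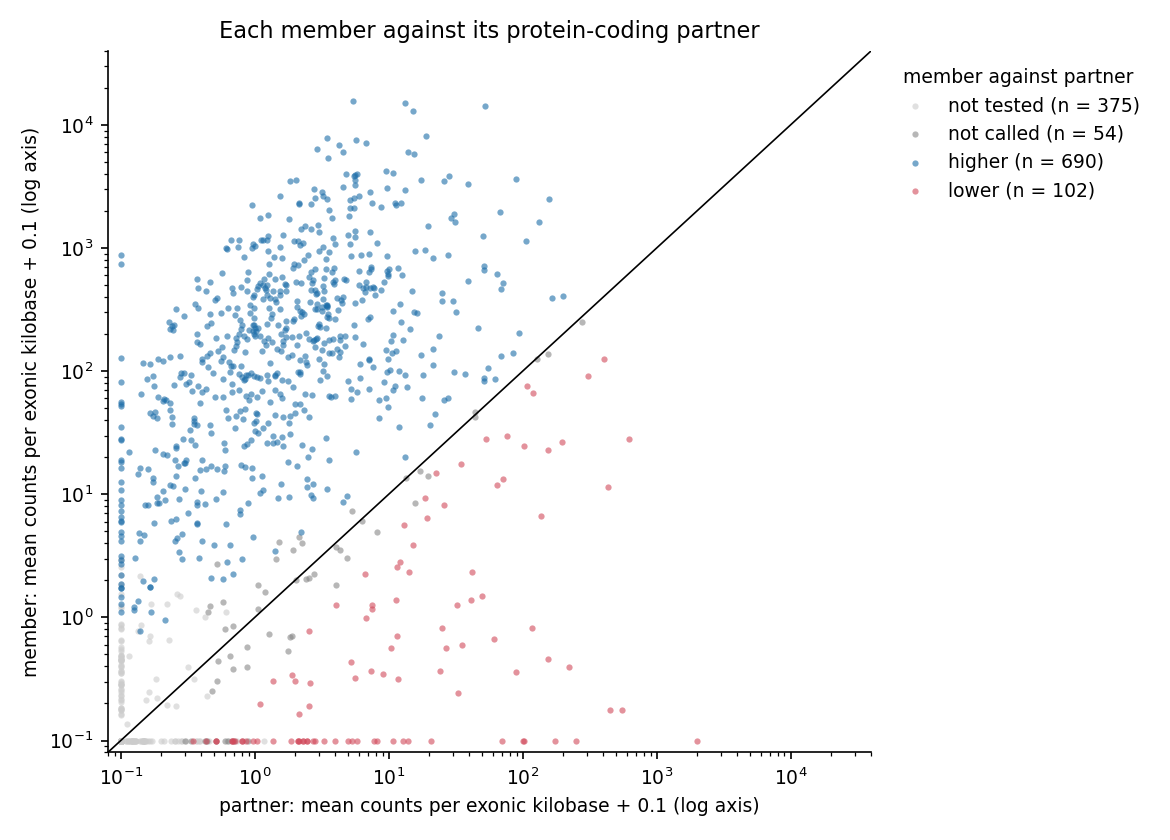
Mean counts per exonic kilobase over 4 libraries in each of the 1221 members (vertical log axis) and in its partner (horizontal log axis), coloured by the edgeR call. The line marks equal levels, with 690 members called higher above it and 102 called lower below it.

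Among the 5 members with the highest ratios, partners had at most 42 counts in a library, and among the 5 with the lowest, 4 members had no count. Gm17041 opposite Cish, given above, was one of the highest. Gm47327 lies wholly in the 3′ UTR of Rnf26 over 262 bases and had 195, 165, 204 and 210 counts, where Rnf26 had none, so it was at least 3585-fold higher per kilobase, taking 3 counts over all libraries as the bound. Gm16312 lies wholly inside exons of Nudt8 and had 280, 239, 435 and 315 counts against none, at least 1326-fold higher. Gm12841 opposite Atp6v0b, a subunit of the proton pump of lysosomes, had 652, 744, 906 and 699 counts against 0, 1, 0 and 6. Gm17122, wholly inside the 3′ UTR of the actin regulator gene Coro1c, had 2266, 2236, 2598 and 2436 against 24, 21, 22 and 42, with a log2 ratio of 11.2 ± 0.284 (SE) and an adjusted edgeR p of 2.87e-286. At the other end, Gm47252 shares 426 bases with Samd11 and had no count, while Samd11 had 6936, 6663, 8016 and 7268, at least 1639.5-fold higher than its noncoding neighbour. Spag17os had none against 1241, 1354, 1701 and 1593 in Spag17, at least 1020.2-fold. Gm37664 opposite Dnah14 and Gm15879 opposite Dnase1 had none either, with the partner at least 355-fold and 342-fold higher. Gm30698 had 0, 0, 0 and 1 counts, against 2231, 2272, 2759 and 2508 in Rnf146, a ratio of 7012 (95% exact interval 1258 to 276978, counting error only). The adjusted edgeR p was at most 1.76e-97 in these 5.

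All 5 of these low members had a partner whose exons in turn face another protein-coding gene on the opposite strand. Samd11 shares 598 bases with Noc2l, Spag17 820 with Wdr3, Dnah14 440 with Lbr, Rnf146 3129 with Echdc1 and Dnase1 54 with Trap1. Among the 102 members called lower, 35 had a partner with such a further protein-coding gene opposite, 34.3%, against 70 of the 690 called higher, 10.1%, and 125 of all 1221 members, 10.2%. The median partner level was 11.4 counts per exonic kilobase in the members called lower and 1.43 in those called higher. What share of these counts comes from the further gene was not tested.

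The level of members also differed with the part of the partner they cover. Of the 1221 members, 619 had the centre of their shared bases nearest the 5′ end when the partner's exonic length was divided into 3 equal parts, 305 had it in the middle part and 297 nearest the 3′ end. The median counts per shared kilobase were 18.3, 47.8 and 141 in these classes. In replicates 1, 2, 3 and 4 they were 16.5, 12.1, 26.6 and 18.5 at the 5′ end and 145, 133, 165 and 146 at the 3′ end, and these ranges did not overlap. A count in at least 1 library was found for 67.7% of the first class and 79.1% of the last. By annotation, the 259 members whose shared bases lay mostly in the partner's 3′ UTR had a median of 159 counts per shared kilobase. The median was 31.2 for the 288 mostly in the 5′ UTR and 15.6 for the 524 mostly in coding sequence. It was 36.2 for the 150 mostly in other exon sequence. In this order, 83.8, 71.5, 66.0 and 71.3% of members had a count in at least 1 library. The upper quartiles of the 3′ UTR and coding classes were closer than their medians, at 844 and 715 counts per shared kilobase. Those of the 5′ UTR and other classes were 475 and 362. Among the 25 leading members were 8 of the 259 opposite 3′ UTRs, 13 of the 524 opposite coding sequence, 2 of the 288 opposite 5′ UTRs and 2 of the 150. The 89 members wholly inside partner exons had a median of 139 and the other 1132 had 36.5. These are descriptions over genes, which are not replicates, and they carry no test.

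**Figure D4:**
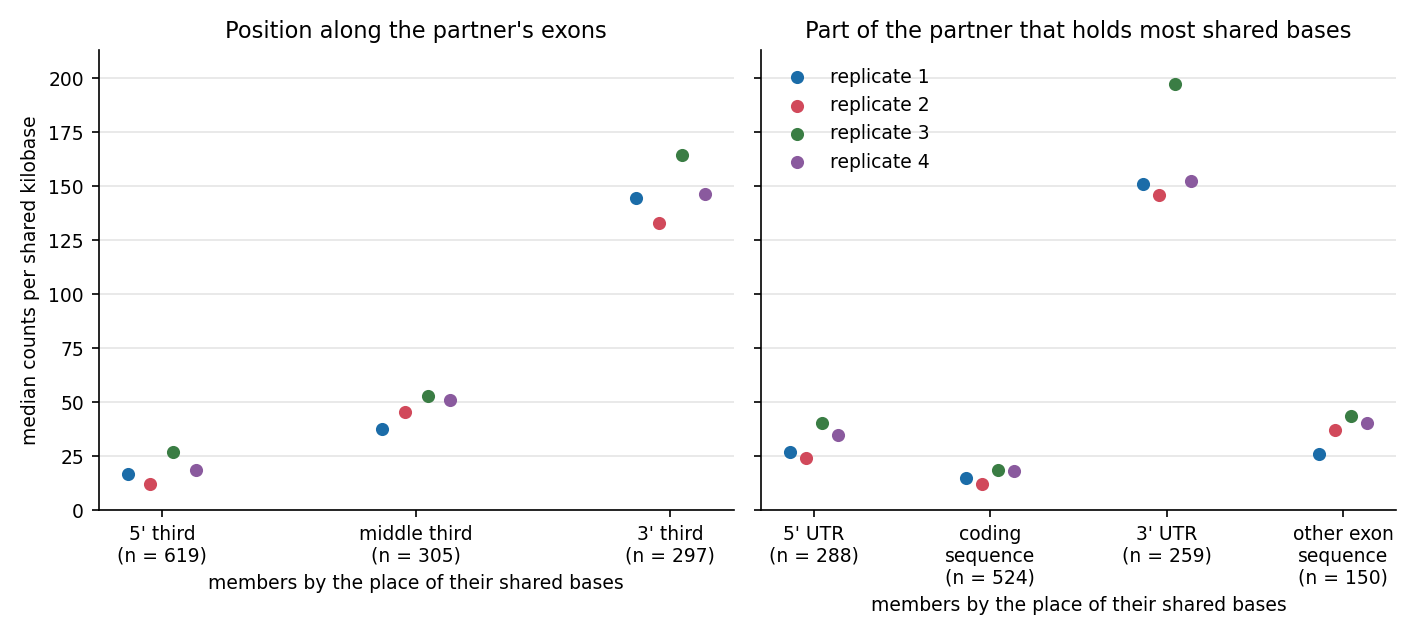
Median counts per shared kilobase in each library, for members grouped by which of 3 equal parts of the partner's exonic length holds the centre of their shared bases (left) and by the part of the partner that holds most of them (right). Medians at the 3′ end lie between 133 and 165 in the 4 libraries and those at the 5′ end between 12.1 and 26.6.

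Members opposite the same partner can be compared along a single gene. Each count is over all exons of the member, not only over its shared bases. There were 46 partners with more than 1 member, 93 members in all. For 27 of them every member had a count, for 13 none had, and for 6 only some. In 19 of the 27, the members' counts per shared kilobase lay within 5-fold of each other. Among the 19 are partners such as Chn1, whose members had totals of 1 and 2 counts, too few to compare. Ube3a, a ubiquitin ligase gene of the imprinted region on chromosome 7, had 3 members. Snhg14, whose long transcript is known as the antisense RNA of Ube3a in neurons, shares 1803 bases of its 3′ UTR and had 1960, 1958, 2736 and 2245 counts, with exons that also overlap 3 genes on its own strand. Gm44560, in the middle of the exons, had 1429, 1573, 2329 and 1895, and 9330162G02Rik at the 5′ end had 810, 677, 1145 and 955. Ube3a itself had 37, 27, 20 and 39. Per shared kilobase the 3 stood at 1234 ± 203, 892 ± 197 and 499 ± 112 (SD, n = 4), in this order in every library. This order depends on the length used, since 6.91, 65.0 and 5.80% of their exonic bases are shared. Per kilobase of the member's own exons the means were 85.3, 580 and 29.0 counts, with Gm44560 highest.

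Other partners held members that were far apart. Opposite Ccnd2, Gm43126 in the 3′ UTR had 17507 ± 1197 counts per shared kilobase and 9330179D12Rik, at the 5′ end, 80.2 ± 9.01 (SD, n = 4), from 27, 30, 34 and 27 counts. Opposite Lcp1, Gm15629 in the middle of the exons had 13193 ± 1540 (SD, n = 4), and Gm15628, with 311 bases of the 5′ UTR, had no count. D430001F17Rik and Gm15976 opposite Atp5o, a subunit of ATP synthase, had 4736 ± 654 and 85.7 ± 18.4 (SD, n = 4), with the 5′ member higher. Opposite Rnf40, too, the 5′ member Gm44759 was higher, at 4087 ± 657 against 63.2 ± 4.61 for 1700120K04Rik (SD, n = 4). In contrast, Gm27232 and Gm27241, both opposite coding sequence of Rfx7, had 2660.4 ± 278 and 1928 ± 213, and Gm15265 and A730011C13Rik opposite Pi4kb had 1112 ± 113 and 1259 ± 140.2 (SD, n = 4). Notch1, the receptor gene of T cell development, faces 0610009E02Rik and Gm13568 in its 3′ UTR, at 838 ± 69.0 and 448 ± 65.7 (SD, n = 4).

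Members at 0 and their partners are given as numbers only, not set against the share of partners at 0 over all members. Of the 345 members with no count, 243 had a partner with no count either and 102 a partner with counts. Those with most shared bases were Gm26883, with 5076 bases opposite Tshz2, 4932430I15Rik, with 3293 opposite Shroom3, and Zim3, with 2582 opposite Usp29. None of these 3 partners had a count in any library. At this depth a member at 0 in all 4 libraries could not be told from one with up to 3 counts in the group.

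Between the 4 libraries few members varied more than genes of like abundance. In a quasi-likelihood fit (edgeR, TMM scaling, no groups), 640 members passed the filter on low counts and 5 of them, 0.781%, were called at an adjusted p under 0.05, against 0.447% over the 4918 genes tested. All 25 leading members were tested and none was called, which at a share of 0.447% does not set them apart from other genes. An unadjusted edgeR p under 0.05 was found in 26 of the 640, 4.06%, against 5.71% of all genes tested. C230062I16Rik opposite Zfp74, a zinc finger gene, had 220, 153, 107 and 67 counts in replicates 1, 2, 3 and 4, with its highest CPM 3.66 times its lowest and an adjusted edgeR p of 0.00489. Its exons also share 348 bases with a further gene on the other strand, against 235 with Zfp74. Gm11973 opposite Purb, a gene for a DNA and RNA binding protein, had 308, 219, 518 and 657, with replicate 4 highest, and an adjusted edgeR p of 0.00586. Gm17189 opposite Ly6k had 205, 232, 244 and 86, so that replicate 4 stood below the other libraries, at an adjusted edgeR p of 0.00885. Gm16796 opposite Pfdn4, a subunit of the prefoldin chaperone, had 409, 374, 923 and 558, with replicate 3 highest, at an adjusted edgeR p of 0.0137. Gm17092 opposite Hnrnpd, a gene for an RNA-binding protein that controls mRNA decay, had 2339, 2157, 1893 and 3564, with replicate 4 highest, at an adjusted edgeR p of 0.0484.

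Partners of these members had few counts. Purb had 58, 42, 47 and 72 and Hnrnpd 88, 96, 106 and 218, with adjusted p-values from edgeR of 0.991 and 0.401, and the other partners were not tested. The calls rested on the scaling and on single libraries. With library totals as the only scaling 0 of the 5 passed in edgeR, a DESeq2 dispersion test also called 0, and without replicate 4 or replicate 3 there were 1 and 3 calls among members.

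**Figure D5:**
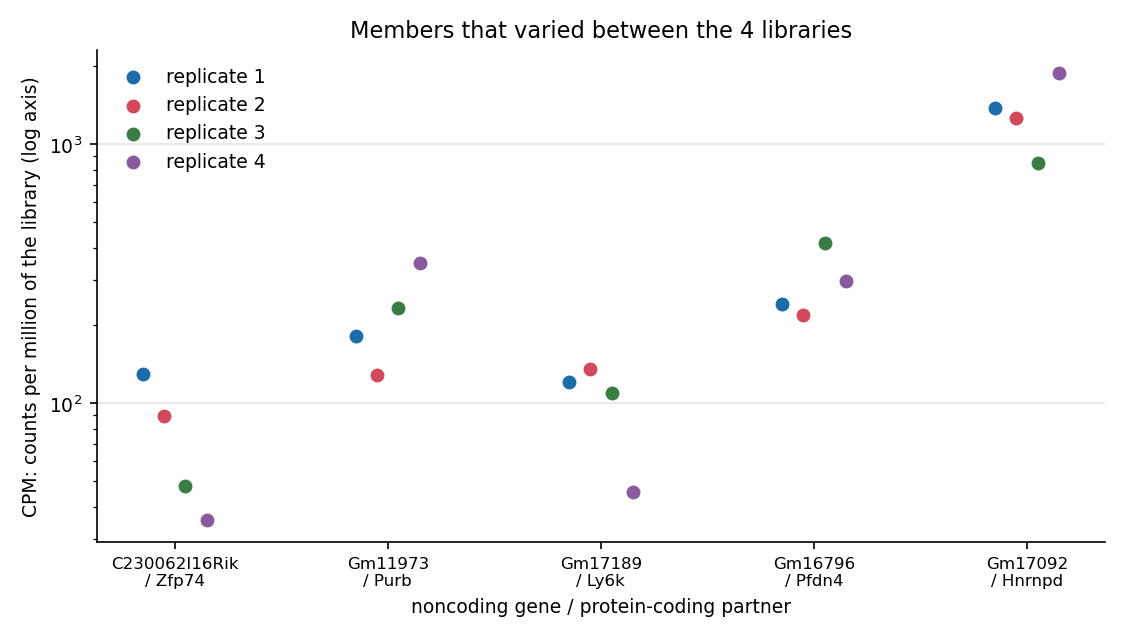
CPM (vertical log axis) in each library for the 5 members called as varying between libraries. The highest value is 3.66 times the lowest in C230062I16Rik and 1.89 times in Gm16796, and the library that stands apart is not the same in all 5.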

How the data were processed

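Counts of read pairs per gene were taken from 4 tables that the authors deposited, 1 per library. The counts were made with featureCounts 1.4.6-p4, strand option 1, on paired reads with both ends aligned and exons grouped by gene, on build mm10 with GENCODE release M13, per the file headers. They are raw counts, not normalised, and the headers name a time of 16 hours that the labels do not give. No aligner is named there or in the labels. The labels call the assay total RNA-seq, and the linked protocol document is named for poly(A) RNA.

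Symbols and types were looked up in GENCODE release M21, also on mm10, and 99.6% of 50600 gene identifiers matched. Exon coordinates were used as deposited and count from 1. Exactly 1 partner was read as exactly 1 protein-coding gene with 200 or more shared bases. Coding and UTR bases and the printed sequences are from release M21 transcripts, and no genome sequence was used here. Members were ranked by the mean count per shared kilobase. Pairs were tested with edgeR 4.0.16 (quasi-likelihood, offset of library total times exonic kilobases, library as a block, at least 10 counts over the pair, Benjamini-Hochberg adjustment at 0.05 over all pairs with any shared base). Variation between libraries was tested with an intercept-only edgeR fit (TMM, filterByExpr, robust), with a one-sided p from each gene's quasi-dispersion relative to the trend. Both tests were tested on simulated data. Class medians were compared within libraries with a sign-flip test, exact and two-sided, over 16 sign patterns, with a pseudocount of 1. Alternatives covered the shared length, gene types, length scaling, normalisation, filters, the library block and leaving out each replicate, with DESeq2 1.42.0 and limma 3.58.1 as other tools, under R 4.3.3, Python 3.11.15, pandas 2.3.3 and scipy 1.17.1.

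Members and the 11 partner lists were chosen with earlier results of these data known. The named genes are the 25 leading members, up to 3 leading members per partner list, members passing the variation test, the 5 with the highest and the 5 with the lowest ratio to the partner, the 3 on each side of 200 shared bases and the 3 members at 0 with most shared bases. Further members of the partner lists and members that share a partner were chosen after their values were seen. Some genes that this rule or the marker lists name are not reported here.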

Additional observations from a re-analysis of the deposited data

Results flagged for a closer look

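Dixon's test for a single value far from the others was applied to 57 values over the 4 libraries, of which chance alone picks out about 1 in 20, and 4 stood apart, 1 of them only because it holds a single count. Gm17134 opposite Ptbp1 had its lowest level in replicate 3, at 2715 CPM (counts scaled to the library total), while the other libraries lay between 3155 and 3182. Gm13609 opposite Nup214 was highest in replicate 4, at 397 CPM against 346 to 352 in the others. Gm26873 opposite Chd1 was highest in replicate 3, at 540.4 CPM against 469 to 478. Gm30698 opposite Rnf146 had its single count in replicate 4, at 0.532 CPM, and none elsewhere, which meets the test by construction and says nothing of this library.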

How the results depend on the processing

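The number of members and their share of the noncoding counts moved with the definition. The share was 76.4% with 100 shared bases, 40.6% for the 533 members with 500, 62.3% with exactly 1 protein-coding gene at any shared base, 66.9% of the antisense counts for the 794 antisense members, 70.2% with chromosome X and ribosomal protein partners kept and 57.9% with no further gene on a member's exons, the last chosen after seeing the data. Own exonic length kept 13 of the 25 leading members, and leaving out a replicate kept 24 to 25. With the shared length, the pairs called lower were 78 in all and 57 among members. The count of pairs called higher stayed within 1.5 times under all alternatives, and so did calls without the library block (1159 higher over all pairs). The 58 named pairs kept their direction and their call under all 11 alternatives. The difference from genes with no opposite exon was 5.02 for genes with a count and 4.20 for lincRNA genes. Where the median of the genes with no opposite exon is 0, as in the main setting, the sign of the difference was fixed in advance. Genes varying between libraries, 22 in all, were 2 with library totals, 56 with no filter, 44 with a mean count of 10, 0 with DESeq2 dispersions and 11 to 21 without a replicate, lowest without replicate 4. Among members they were 0 with library totals, 0 with DESeq2 dispersions and 1 to 4 without a replicate. The cause was not tested. Raw depth limits members with few counts, and 345 at 0 may hold up to 3.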
